A study of Mus musculus with 6 samples.

Results

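The genes described here are 48 mouse genes that type I interferon is known to induce, many of whose products act against viruses. They are matched by symbol, a rule that uses no measured value, but the list was chosen with earlier results of these data known. Each symbol was looked up in the deposited table of read counts. Of the 48 members, 42 matched a row of the 14831 genes in the table, and 41 had enough reads to be tested. The 6 members without a matching row, Oas3, Oasl1, Mx1, Rsad2, Cmpk2 and Epsti1, were not analysed here. Only 13666 of the 14831 genes carry a symbol, and genes without a symbol were not searched for members. A missing match therefore does not show that a member had few reads. No gene in the table has fewer than 20 counts over the 6 libraries.

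The cells were immortalized mouse pancreatic fibroblasts of mixed strain, grown to confluence in separate wells, and polyadenylated RNA was sequenced from 3 wells with the genotype label WT and 3 with the label Gli2-/-;Gli3-/-. GLI2 and GLI3 are transcription factors of the hedgehog pathway, and the comparison asks how fibroblasts change when both are removed. According to the study's methods, such lines were grown out from the adult mouse pancreas and infected after immortalization, and infected cells were then sorted. All of them received an adenovirus with eGFP under the CMV promoter. Control lines also received a lentivirus with dsRed, and knockout lines also received an adenovirus with Cre under the CMV promoter. The series' design text calls the replicates independent and biological, while the growth protocol describes them as separate wells of each group, and neither says how many lines were used. If the wells share a line, p-values measure only the spread between wells, which may be technical. The second viral agent differs along with the genotype, as do the infected and sorted cells that make up each line. The part of each cannot be told apart in this design.

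The 6 libraries hold between 31728420 and 41035931 counts on genes, and a floor of 3 counts corresponds to 0.0720 to 0.0957 CPM, the counts of a gene scaled to the size of its library. Read counts of the targeted genes went against the labels: Gli2 was 2.07-fold and Gli3 3.27-fold higher in the libraries labelled KO, with log2 fold changes of 1.05 and 1.71 (edgeR adjusted p = 8.01e-10 and 2.10e-11). The counts cover whole genes and do not resolve the deleted exons. The 2 groups are named by their labels alone, as labelled WT and labelled KO, and all directions given below depend on them. The study's methods state that the lines were screened for recombination by qPCR and western blot, which were not analysed here. Of 10 fibroblast markers, 8 matched a row, with Col1a1 at 15979.6 and 16110.9 CPM on average in labelled WT and labelled KO and Vim at 4285 and 3911 CPM, although Thy1 had at most 19 counts in any library. Of the 7 fibroblast markers tested, 4 were called lower in labelled KO, at log2 fold changes of -1.55 for Dcn, -0.94 for Col3a1, -0.90 for Pdgfra and -0.66 for Pdgfrb, where 6.1% of all tested genes were called lower (adjusted p under 0.05 and at least 1.5-fold). Of 12 leukocyte markers, 4 matched a row, and their summed level was 55.6 to 60.8 CPM in labelled WT and 52.4 to 54.1 CPM in labelled KO. Most of it came from Lyz2, at 41.1 and 36.6 CPM on average in labelled WT and labelled KO, and Cd14, at 15.7 and 13.9 CPM. Their log2 fold changes were -0.17 and -0.18 (edgeR adjusted p = 0.0161 and 0.0239), short of the fold limit. The defining markers Ptprc, Adgre1 and Itgam had no matching row, nor had any of 5 endothelial markers. Of 10 epithelial and acinar markers, 4 matched a row, with a summed level of 11.7 to 14.1 CPM in labelled WT and 37.6 to 39.5 CPM in labelled KO. The 3 tested were all called higher in labelled KO, where 11.6% of all tested genes were. Their log2 fold changes were 2.40 for Krt7, 1.08 for Cdh1 and 0.87 for Cela1. The part of all these markers in the results below was not tested.

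Type I interferons are secreted when a cell senses viral nucleic acid, and they bind a receptor made of IFNAR1 and IFNAR2. The kinases TYK2 and JAK1 then activate a complex of transcription factors named ISGF3, which enters the nucleus. ISGF3 binds the interferon-stimulated response element (ISRE), a pair of GAAA-like repeats in the promoters of its target genes, many of which block a step of viral growth. Low constitutive interferon keeps some of these genes on in resting cells, fibroblasts among them.

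The promoters of 5 members are shown because they hold, or lack, the letters GAAANNGAAA, a strict form of this element. All 5 genes were lower in the libraries labelled KO. The sequences are the 250 bases before each RefSeq start on GRCm38.p6, written 5′ to 3′ on the gene's own strand, with each match to GAAANNGAAA on either strand in capitals. Matches may overlap one another.
Ifit1, chr19:34640639-34640888, plus strand: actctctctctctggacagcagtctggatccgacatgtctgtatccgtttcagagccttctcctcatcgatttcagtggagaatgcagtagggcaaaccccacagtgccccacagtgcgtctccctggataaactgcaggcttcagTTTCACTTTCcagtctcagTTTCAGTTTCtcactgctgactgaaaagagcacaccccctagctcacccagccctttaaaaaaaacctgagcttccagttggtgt
Ifit3, chr19:34583279-34583528, plus strand: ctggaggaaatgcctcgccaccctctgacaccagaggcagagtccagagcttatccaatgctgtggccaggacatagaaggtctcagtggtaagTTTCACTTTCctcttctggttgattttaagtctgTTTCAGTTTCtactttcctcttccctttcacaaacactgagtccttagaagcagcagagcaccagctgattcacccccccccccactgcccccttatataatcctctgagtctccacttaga
Isg15, chr4:156200819-156201068, minus strand: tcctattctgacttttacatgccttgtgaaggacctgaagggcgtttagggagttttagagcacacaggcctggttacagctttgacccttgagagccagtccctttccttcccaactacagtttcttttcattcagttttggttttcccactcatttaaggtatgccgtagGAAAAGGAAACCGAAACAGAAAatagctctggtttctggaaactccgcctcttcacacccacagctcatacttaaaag
Ddx60, chr8:61927837-61928086, plus strand: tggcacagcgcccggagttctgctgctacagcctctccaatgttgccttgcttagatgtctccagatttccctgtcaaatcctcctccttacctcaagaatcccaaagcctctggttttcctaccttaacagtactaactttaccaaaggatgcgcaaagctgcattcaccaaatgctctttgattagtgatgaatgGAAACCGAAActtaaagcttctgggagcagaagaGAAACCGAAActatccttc
Oasl2, chr5:114896684-114896933, plus strand: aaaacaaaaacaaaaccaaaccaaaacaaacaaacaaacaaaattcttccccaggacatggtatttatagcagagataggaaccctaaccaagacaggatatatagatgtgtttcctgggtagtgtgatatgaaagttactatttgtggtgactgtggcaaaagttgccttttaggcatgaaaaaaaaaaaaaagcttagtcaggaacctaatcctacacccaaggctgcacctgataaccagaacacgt

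Ifit1 and Ifit3, from the same gene cluster on chromosome 19, carry the same 2 sites in the same order, TTTCACTTTC then TTTCAGTTTC. In Ifit1 these lie at -104 to -95 and -85 to -76 from the RefSeq start, and in Ifit3 at -156 to -147 and -122 to -113. The Isg15 promoter holds 3 matches that overlap in a single run from -78 to -57. Ddx60 holds the site GAAACCGAAA at both -53 to -44 and -19 to -10, while the Oasl2 window holds no match. RefSeq promoter windows, from 250 bases before to 50 after the start, were found for 38 of the 48 members, and 17 of these held GAAANNGAAA on either strand. Among all 27025 genes in the RefSeq promoter table, 1079 (3.99%) held it. A match describes the letters in this window and is neither a measured binding site nor a cause of a change. A window without an exact match may still hold similar repeats.

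Many more members were lower than higher in the libraries labelled KO. Of the 41 tested, 19 were called lower, where a call needs an adjusted p under 0.05 and at least a 1.5-fold change, while 6.1% of all 14289 tested genes were called lower. Only Isg20 among the members was called higher (11.6% of all tested genes), and 21 members were not called. The median log2 fold change, labelled KO over labelled WT, was -0.44 for the members tested and 0.002 for all tested genes, and 37 of the 41 values were negative. With Oas1g, which was at the floor in labelled KO, set to its bound, the members' median was -0.50. These counts and medians describe a list chosen with earlier results of these data known, and are not a test of it. The samples are bulk RNA, in which fewer cells with a given program and less RNA in each cell cannot be told apart. By adjusted p alone, 31 members were lower and 4 were higher, where all tested genes gave 28.8% lower and 29.9% higher. All 3 libraries labelled KO lay below all 3 labelled WT for 32 of the 42 members and above them for 4, and the 2 ranges overlapped for 6, while among all tested genes 31.3% lay fully below and 32.9% fully above. The fold limit of 1.5 falls between Oas1c, the smallest change called lower at -0.59, and Samd9l, not called at -0.56.

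**Figure D1:**
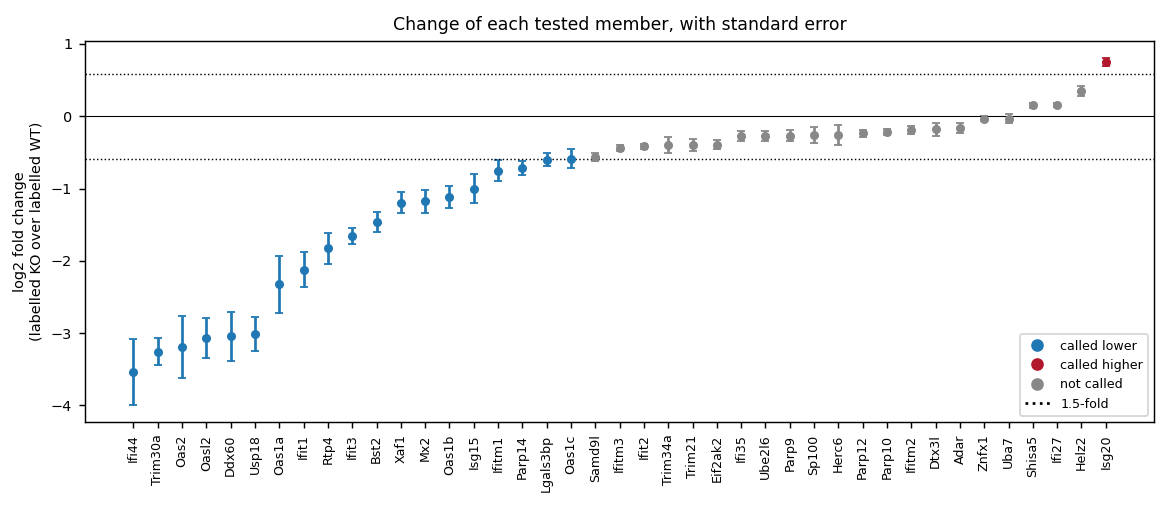
Log2 fold change (labelled KO over labelled WT, vertical axis) of the 41 tested members in order of size, with bars of 1 standard error from the edgeR fit and dotted lines at 1.5-fold. The 19 members called lower run from -3.53 for Ifi44 to -0.59 for Oas1c, and Isg20, at 0.75, is the 1 called higher.

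Genes of enzyme families that react to double-stranded RNA were mostly lower in labelled KO. Active OAS enzymes make a short 2′-5′ linked oligonucleotide that activates RNase L, which then cuts viral and cellular RNA. Whether each member's product is active was not measured. Of the 10 members in this group, 7 were tested, 5 were called lower and none was called higher. Beside the counts of this group and of the groups below, 6.1% of all tested genes were called lower and 11.6% higher. Oas2 (chromosome 5, from 120730333 to 120749853) had 6.00, 3.31 and 10.7 CPM in the libraries labelled WT and 0.565, 1.03 and 0.515 CPM in those labelled KO. It was 9.12-fold lower in labelled KO on average, with the widest spread between labelled WT wells among the tested members. Oasl2 (chromosome 5, from 114896936 to 114912234), whose product resembles an OAS enzyme joined to ubiquitin-like domains, had 13.0, 9.11 and 19.8 CPM in labelled WT and 1.44, 1.54 and 2.06 CPM in labelled KO. Its lowest library labelled WT was 4.42-fold above its highest labelled KO, with a log2 fold change of -3.06 (SE, its standard error, 0.28, adjusted p = 9.52e-07; adjusted p-values come from the edgeR quasi-likelihood F test, Benjamini-Hochberg adjusted over all tested genes).

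The 4 Oas1 members lie in the Oas cluster of chromosome 5. Oas1b (from 120812635 to 120824163), annotated as a polymorphic pseudogene because its reading frame differs among mouse strains, had 3.67, 3.73 and 5.07 CPM in labelled WT and 1.84, 1.97 and 1.94 CPM in labelled KO. The groups did not overlap, and the log2 fold change was -1.12 (SE 0.15, adjusted p = 3.43e-05). Oas1c had 3.96, 4.0 and 5.20 CPM in labelled WT and 2.94, 2.69 and 3.15 CPM in labelled KO, a change of -0.59 (SE 0.13, adjusted p = 0.00203). This call fell below the fold limit, at -0.45, when labelled WT replicate 3 was left out. Oas1a was called lower at -2.33 (SE 0.39, adjusted p = 0.000217), on at most 40 counts in a library. Oas1g had 15, 7 and 13 counts in labelled WT and 2, 0 and 0 in labelled KO, too few for the test, and was at least 4.42-fold lower in labelled KO against a floor of 3 counts per library. Oas1a and Oas1g are uncertain as separate genes, because 57.6% of the 50-base windows of Oas1a and 45.7% of those of Oas1g also occur in another gene.

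The 2 other RNA-dependent enzymes were the least changed of the group. Eif2ak2 encodes PKR, the kinase that stops translation when it binds double-stranded RNA. It had 71.9, 70.4 and 87.7 CPM in labelled WT and 58.1, 58.5 and 58.7 CPM in labelled KO, a log2 fold change of -0.39 (adjusted p = 0.000256), short of the fold limit. Adar, the enzyme that converts adenosine to inosine in double-stranded RNA, gave -0.16 (adjusted p = 0.0692), with overlapping groups. Exons of Chrnb2 on the opposite strand cover 16.8% of the Adar exons, and whether the counting used strand is not given in the sources used here.

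Among RNA-binding and helicase proteins, 3 of 6 members were called lower and 3 were not called. IFIT proteins bind viral RNA ends that lack the cap methylation of host mRNA, and their genes form a cluster on chromosome 19. Ifit1 (from 34640871 to 34650009) had 19.2, 12.7 and 28.8 CPM in labelled WT and 5.0, 4.29 and 4.66 CPM in labelled KO. Its log2 fold change was -2.12 (SE 0.24, adjusted p = 8.86e-06), and the labelled WT wells were spread over a 2.27-fold range while those labelled KO lay within 1.16-fold. Ifit3 (from 34583531 to 34588731) had 30.9, 27.7 and 38.2 CPM in labelled WT and 10.4, 8.93 and 11.4 CPM in labelled KO, a change of -1.66 (SE 0.11, adjusted p = 8.04e-08). It shares 51.2% of its 50-base windows with its copy Ifit3b, which changed by -1.63, and reads of the 2 genes may have been split or dropped in counting.

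Ifit2, from the same cluster, passed the threshold on adjusted p and not the fold limit. Its 69.7, 69.5 and 70.7 CPM in labelled WT and 52.1, 53.0 and 52.3 CPM in labelled KO gave a log2 fold change of -0.41 with a standard error of 0.03 (adjusted p = 2.70e-07). The coefficient of variation between labelled WT wells was 0.919% for Ifit2 against 40.1% for Ifit1 and 16.7% for Ifit3. The Ifit2 promoter windows held no GAAANNGAAA, and sequence outside them was not searched.

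Ddx60 (chromosome 8, from 61928087 to 62038244) encodes a helicase that assists RIG-I-like sensing. Of the tested members it had the lowest level per length, at 0.159 CPM per kilobase of exon in labelled WT, with 44, 32 and 57 counts in labelled WT and 5, 6 and 7 in labelled KO, or 1.40, 0.955 and 1.79 against 0.141, 0.144 and 0.212 CPM. Its log2 fold change was -3.04 (SE 0.34, adjusted p = 6.54e-06). Helz2, a helicase that also serves as a nuclear receptor coactivator, went the other way by 0.34 (adjusted p = 0.000728), short of the fold limit, and Znfx1, an RNA-sensing helicase at the mitochondrial surface, gave -0.04 (adjusted p = 0.403).

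**Figure D2:**
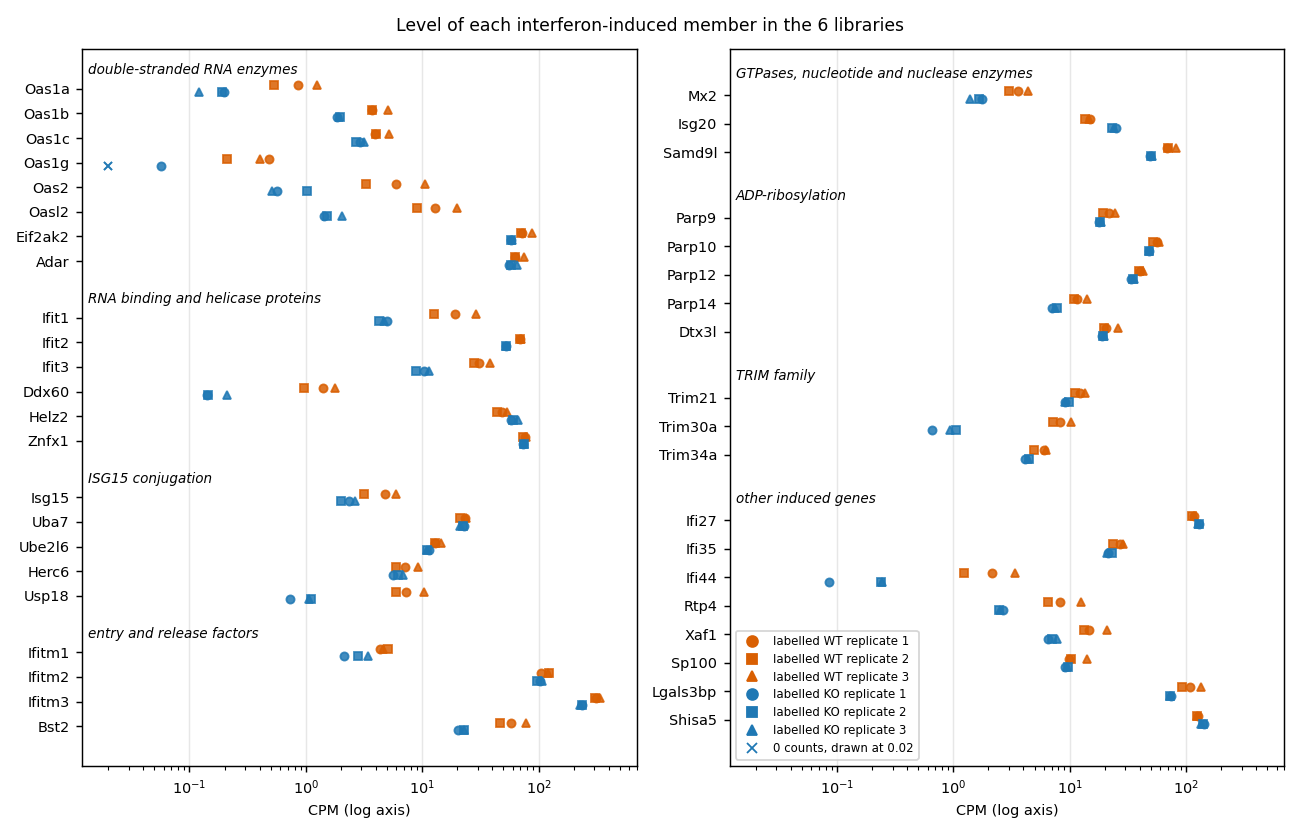
CPM (log axis) of the 42 listed members in each library, by family, with labelled WT in orange and labelled KO in blue and a marker shape for each replicate. The 3 libraries labelled KO lie below the 3 labelled WT for 32 of the 42 members, and the triangle of labelled WT replicate 3 is the rightmost orange marker for most.

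ISG15 is a ubiquitin-like protein that is joined to viral and host proteins by a chain of enzymes. Isg15 itself (chromosome 4, from 156199424 to 156200818) had 4.82, 3.16 and 6.01 CPM in labelled WT and 2.37, 1.99 and 2.67 CPM in labelled KO. Its log2 fold change was -1.0 (SE 0.21, adjusted p = 0.00106), and its lowest library labelled WT was only 1.19-fold above its highest labelled KO. Usp18 (chromosome 6, from 121245906 to 121270917), the protease that removes ISG15 and that also blocks signalling at IFNAR2, had 7.31, 5.91 and 10.4 CPM in labelled WT and 0.734, 1.10 and 1.06 CPM in labelled KO. It changed by -3.01 (SE 0.23, adjusted p = 2.25e-07), with a gap of 5.36-fold between the nearest libraries. The genes that carry out the conjugation were not called. Uba7, the activating enzyme, gave -0.03 (adjusted p = 0.669), a sign that turned under 4 of the alternative settings. Ube2l6, the conjugating enzyme, gave -0.27 (adjusted p = 0.00350), and Herc6, the mouse ligase, gave -0.25 (adjusted p = 0.137).

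Of the 4 members that act at virus entry and release, 2 were called lower. Ifitm3, which blocks fusion of viral envelopes in endosomes, had the highest level per length of all members, at 467 CPM per kilobase of exon in labelled WT and 344 in labelled KO. Its 310, 305 and 335 CPM in labelled WT and 237, 238 and 225 CPM in labelled KO gave a log2 fold change of -0.44 (SE 0.04, adjusted p = 6.31e-07), short of the fold limit. Ifitm2 gave -0.19 (adjusted p = 0.00913), with overlapping groups and 48.5% of its windows shared with other sequences. Ifitm1 had 4.31, 5.13 and 4.57 CPM in labelled WT and 2.15, 2.81 and 3.39 CPM in labelled KO, a change of -0.75 (SE 0.15, adjusted p = 0.000740). Ifitm1 was the 1 member called lower that was higher in labelled WT replicate 2 than in replicate 3.

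Bst2 (chromosome 8, from 71534255 to 71537456) encodes tetherin, which holds budding virus at the cell surface. It had 58.0, 46.7 and 77.7 CPM in labelled WT and 20.3, 22.9 and 22.9 CPM in labelled KO. Its log2 fold change was -1.46 (SE 0.14, adjusted p = 1.87e-06), and among members called lower it had the highest level per length, at 67.3 CPM per kilobase in labelled WT and 24.4 in labelled KO.

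Of the GTPases and the enzymes of nucleotides and nucleic acids, 3 of 6 members had a matching row. Mx2 (chromosome 16, from 97535308 to 97560900), a dynamin-like GTPase that is annotated as a polymorphic pseudogene, had 3.61, 3.02 and 4.38 CPM in labelled WT and 1.78, 1.66 and 1.39 CPM in labelled KO, a log2 fold change of -1.18 (SE 0.16, adjusted p = 4.56e-05). Samd9l, a restriction factor that shuts down translation, changed by -0.56 (adjusted p = 2.35e-06) and passed the fold limit only when labelled WT replicate 1 or 2 was left out, at -0.61 and -0.59. Isg20 (chromosome 7, from 78913424 to 78920396), an exonuclease that degrades RNA, went the opposite way to the other called members. It had 15, 13.5 and 14.6 CPM in labelled WT and 25.2, 23.3 and 23.9 CPM in labelled KO, a change of 0.75 (SE 0.06, adjusted p = 2.09e-07). Its coefficient of variation was 5.30% in labelled WT and 3.92% in labelled KO, so the rise of 1.68-fold is far outside the spread between wells.

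ADP-ribosyltransferases modify viral and host proteins, and PARP9 works together with DTX3L as a ubiquitin ligase. Only Parp14 of these 5 members was called lower. It had 11.6, 10.8 and 14.2 CPM in labelled WT and 6.97, 7.80 and 7.42 CPM in labelled KO, a log2 fold change of -0.72 (SE 0.10, adjusted p = 4.53e-05). Parp9, Parp10, Parp12 and Dtx3l changed by -0.27 to -0.18 and were not called. Parp9 and Dtx3l share a divergent start, and each overlaps the other on the opposite strand over 9.40% and 8.0% of its exons.

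TRIM proteins are ubiquitin ligases that restrict viruses or tune sensing. Trim30a (chromosome 7, from 104409025 to 104465193) had 8.20, 7.16 and 10.2 CPM in labelled WT and 0.649, 1.06 and 0.939 CPM in labelled KO. Its log2 fold change was -3.26 (SE 0.18) with the smallest adjusted p of the members, 1.17e-08, and the nearest libraries of the 2 groups stood 6.79-fold apart. Trim21, which binds antibody on incoming virus, and Trim34a both changed by -0.40, short of the fold limit, and 39.8% of the windows of Trim34a are shared with Trim34b.

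Of the 9 other members, 4 were called lower. Ifi44 (chromosome 3, from 151730922 to 151749960) had the largest fall of the list, with 67, 41 and 109 counts in labelled WT and 3, 10 and 8 in labelled KO, or 2.14, 1.22 and 3.41 CPM against 0.0847, 0.240 and 0.242 CPM. At so few reads in labelled KO, its log2 fold change of -3.53 has a standard error of 0.45 (adjusted p = 2.36e-05). Rtp4 (chromosome 16, from 23520291 to 23614222), a chaperone of membrane receptors, had 8.20, 6.45 and 12.5 CPM in labelled WT and 2.65, 2.47 and 2.51 CPM in labelled KO, a change of -1.83 (SE 0.21, adjusted p = 1.02e-05). Xaf1, a pro-apoptotic protein that binds XIAP, had 14.8, 13.3 and 20.9 CPM in labelled WT and 6.52, 7.10 and 7.72 CPM in labelled KO, a change of -1.20 (SE 0.14, adjusted p = 1.39e-05).

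Lgals3bp, a secreted glycoprotein that binds galectin-3, was called at the edge of the fold limit. It had 108, 92.7 and 133 CPM in labelled WT and 73.5, 73.3 and 73.1 CPM in labelled KO, a log2 fold change of -0.60 (SE 0.09, adjusted p = 0.000122). Without labelled WT replicate 3 its change was -0.45 and the call was lost. Ifi27 and Shisa5 gave 0.15 each, with the 3 libraries labelled KO above those labelled WT but far within the fold limit, and Ifi35 and Sp100 gave -0.27 and -0.26. Per length, Ifi27 stood at 78.5 CPM per kilobase in labelled WT and 87.4 in labelled KO, above every member but Ifitm2 and Ifitm3.

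The wells of the labelled WT group differed from one another in these genes much more than in all tested genes of like depth. Among the 37 members with at least 100 counts on average, the median coefficient of variation of CPM between wells was 12.5% in labelled WT and 4.25% in labelled KO. Over all 11039 tested genes of that depth the medians were 3.70% and 3.50%. The coefficient of variation was greater in labelled WT than in labelled KO for 33 of the 37 members (89.2%), and for 51.9% of all genes of that depth. The wider spread was not particular to the members. Outside them, the coefficients in labelled WT and labelled KO were 26.1% and 10.0% for Irf7, 26.8% and 6.98% for Dhx58, and 23.1% and 10.5% for Ifit3b. Some pathway genes lacked it, such as Jak1 at 1.38% and 3.77% and Ifnar1 at 2.36% and 4.08%.

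The labelled WT wells also kept an order across members. Replicate 3 was the highest of the group for 33 of the 37 members (89.2%), where it was highest for 33.1% of all genes of that depth, and replicate 2 was the lowest for 31 (83.8%, against 28.6%). The full order, replicate 3 above replicate 1 above replicate 2, held for 29 members (78.4%) and for 12.7% of all genes. Outside the members, Irf7, Dhx58, Irf9, Stat2 and Ifit3b had this order too, while Trim30d, Jak1 and Ifnar1 did not. The replicate numbers are names given in accession order, the members were measured in the same 3 libraries, and they are not independent of one another. Among the wells labelled KO, replicate 3 was highest for 17 of 37 members (45.9%, against 35.6% of all genes). The lowest well and the full order were not counted for labelled KO.

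Members with a larger difference between the groups tended to differ more between the labelled WT wells, with exceptions. The ratio of labelled WT replicate 3 to replicate 2 had a median of 1.66-fold, with a range from 0.891 to 3.22, over the 19 members called lower, and of 1.16-fold over the 21 not called. Oas2, Ifi44, Oas1a and Ifit1 stood at 3.22-fold, 2.79-fold, 2.33-fold and 2.27-fold, while Trim30a and Ifit3, with changes of -3.26 and -1.66 between the groups, stood at only 1.43-fold and 1.38-fold. When this ratio was set against the ratio of the labelled KO mean to labelled WT replicate 1, which shares no library with it, Spearman's rho was -0.71 and Pearson's r -0.77 over the 37 members, and 0.005 and -0.009 over the 11039 genes. These correlations are across genes in 6 libraries and are given as a description. For each of the 19 members called lower, the lowest library labelled WT lay above the highest labelled KO. The call was made on these same libraries and favours such a gap, so this adds no separate evidence. Without labelled WT replicate 3, 17 members were called lower and Isg20 higher, with Oas1c and Lgals3bp lost.

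**Figure D3:**
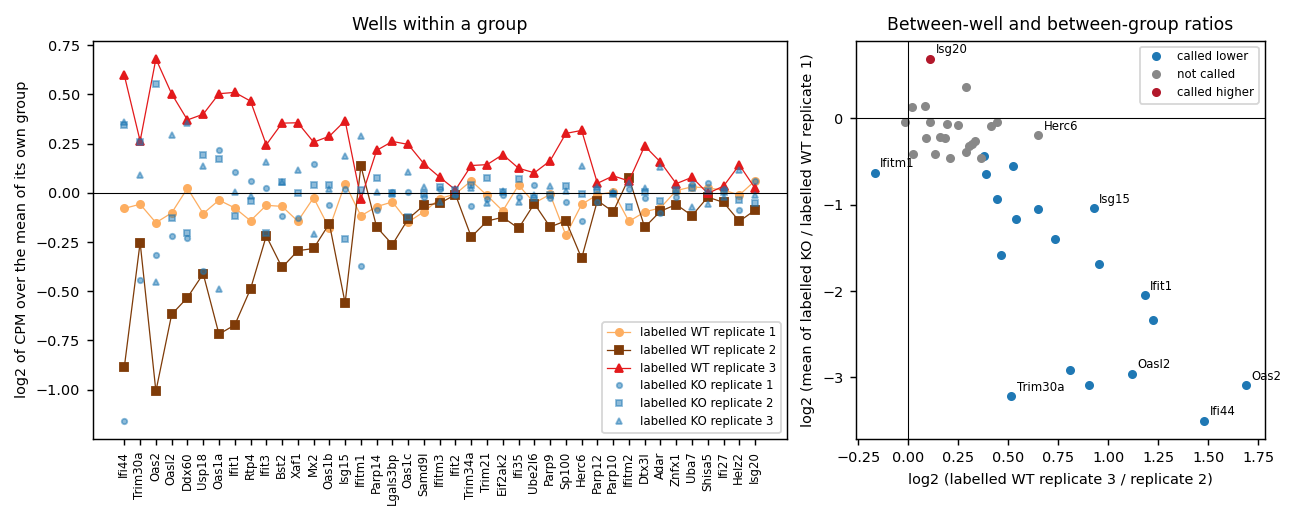
Left, log2 of CPM in each library over the mean of its own group for the 41 tested members, with labelled WT wells joined by lines and labelled KO wells as blue points; labelled WT replicate 3 runs above the other labelled WT wells for most members. Right, log2 ratio of labelled WT replicate 3 to replicate 2 (horizontal axis) against log2 ratio of the labelled KO mean to labelled WT replicate 1 (vertical axis) for the same members, where Oas2 and Ifi44 lie farthest to the lower right.

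The promoter letters were then set beside the calls. Of the 19 members called lower, 13 had a promoter window in RefSeq, and 8 of these held GAAANNGAAA, namely Oas1a, Oas1c, Ifit1, Ifit3, Ddx60, Isg15, Bst2 and Trim30a. The windows of Oasl2, Ifitm1, Ifi44, Xaf1 and Lgals3bp held no exact match. Similar repeats, such as gaaaatcgaaa in the Lgals3bp window, were not counted. Of the 21 members not called, 18 had a window and 6 held the letters, among them Ifitm3, Ifitm2 and Eif2ak2. The Isg20 windows held no GAAANNGAAA, and 1 of them held TTCNNNGAA, the letters of the gamma-activated site, at -73 to -65. Windows of Oas1a and Bst2, called lower, also held TTCNNNGAA, as did those of Eif2ak2, Adar, Ifit2, Ifitm3, Ifi35 and Shisa5, not called. That second motif, which reads the same on both strands, is in the windows of 9.55% of all genes.

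Over 5 lists of interferon pathway genes that are not members, 32 of 43 genes had a matching row and all 32 were tested, with 4 called lower and 3 called higher, where 6.1% of all tested genes were called lower and 11.6% higher. Their median log2 fold change was 0.01, and by adjusted p alone 11 were lower and 12 higher, shares near the 28.8% and 29.9% of all tested genes. None of the 10 interferon ligand genes had a matching row. None of the 7 receptor and kinase genes was called, and Ifnar1, Ifnar2, Jak1 and Tyk2 changed by 0.02 to 0.12. Jak2, at the high end, gave 0.48 (adjusted p = 3.70e-07), short of the fold limit. Ifngr2 gave 0.15 (adjusted p = 0.00301) and Ifngr1, at the low end, -0.15 (adjusted p = 0.000798).

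Stat2 and Irf9, which encode subunits of ISGF3, were both short of the fold limit. Stat2 gave -0.52 (adjusted p = 4.61e-05) and Irf9 -0.44 (adjusted p = 0.000249), and labelled WT replicate 3 was the highest library of its group for both. Irf7, the factor that amplifies interferon transcription and is itself interferon-induced, was called lower. It had 10.1, 7.79 and 13.2 CPM in labelled WT and 2.85, 2.88 and 3.39 CPM in labelled KO, a log2 fold change of -1.77 (SE 0.17, adjusted p = 2.07e-06). Irf5, a relative that acts below Toll-like receptors, was called higher, at 1.08 (SE 0.18, adjusted p = 0.000174).

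Of 11 nucleic acid sensors and adaptors tested, 3 were called lower (6.1% of all tested genes) and 1 higher (11.6% of all tested genes). Ifih1, which encodes the double-stranded RNA sensor MDA5, had 3.57, 2.78 and 3.54 CPM in labelled WT and 13.8, 14.7 and 16.0 CPM in labelled KO. It was 4.49-fold higher in labelled KO (log2 fold change 2.17, SE 0.10, adjusted p = 1.82e-09), the largest rise in the 5 lists, while Ddx58, which encodes RIG-I, gave -0.45 and Tlr3 0.50, both short of the fold limit. Dhx58, the third RIG-I-like helicase, was called lower at -0.86 (adjusted p = 0.000605). The DNA sensor Cgas and the Z-form nucleic acid sensor Zbp1 were called lower at -0.96 and -1.63, the latter on at most 37 counts in a library. Ptpn6, a phosphatase that damps cytokine signalling, was called higher at 1.78 on 4 to 28 counts. Socs1, at the low end of the same list of negative regulators, gave -0.39 (adjusted p = 0.00273), short of the fold limit.

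**Figure D4:**
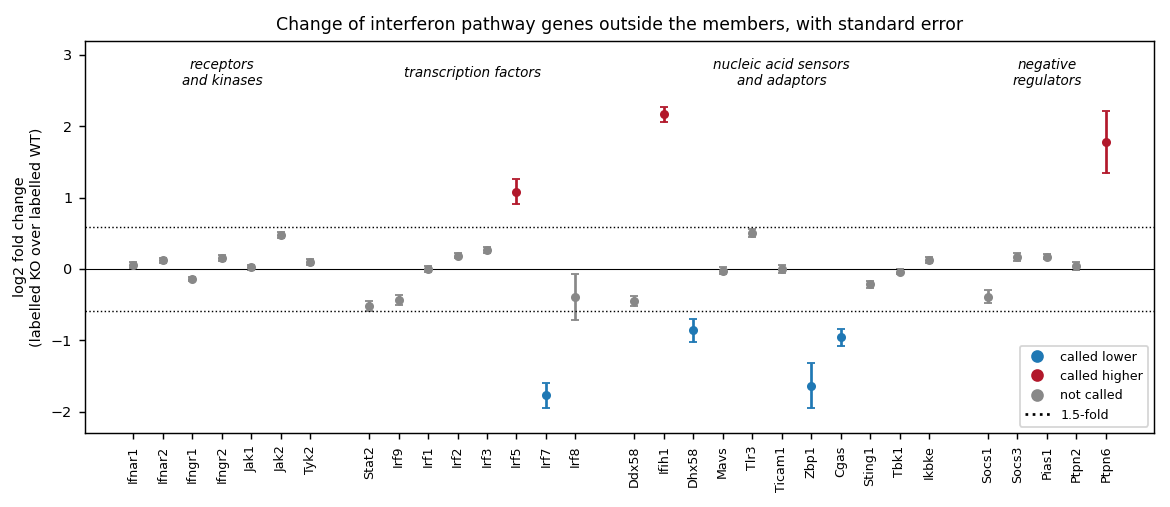
Log2 fold change (labelled KO over labelled WT, vertical axis) of tested interferon pathway genes outside the members, in 4 functional lists, with bars of 1 standard error and dotted lines at 1.5-fold. Receptors and kinases lie between the dotted lines, while Irf7, Zbp1, Cgas and Dhx58 lie below them and Ifih1, Ptpn6 and Irf5 above.

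Close relatives of the members were read in the same fit. Of 25 such genes, 15 had a matching row, with 4 called lower (6.1% of all tested genes) and 2 higher (11.6% of all tested genes). Ifi27l2a, a relative of Ifi27, had 22.1, 18.7 and 24.1 CPM in labelled WT and 1.64, 1.49 and 1.51 CPM in labelled KO, a log2 fold change of -3.80 (SE 0.12, adjusted p = 4.87e-11), where Ifi27 gave 0.15. Trim30d, which shares windows with Trim30a, gave -2.25 (adjusted p = 8.83e-06). At the other end, Ifitm10 gave 1.26 (adjusted p = 0.00166) at 0.388 to 2.32 CPM, where Ifitm1, Ifitm2 and Ifitm3 gave negative values.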

How the data were processed

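RNAseq was analysed from 6 libraries of immortalized mouse pancreatic fibroblasts, 3 labelled WT and 3 labelled KO, with groups taken from the labels. The authors deposited raw read counts per gene, and log2 CPM values made with limma, here used only as an alternative. The submitters' processing notes name STAR 2.7.2b, featureCounts, limma and GRCm38.p6. Strand setting and annotation release are not given in the sources used here. Genes were placed with GENCODE M21, with which 14822 of 14831 identifiers match without version. Irf8 and Ptpn6, without a symbol in the table, were found by that annotation's name, a search that was not made for the members.

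Counts were fitted with edgeR 4.0.16 in R 4.3.3 (TMM, filterByExpr, quasi-likelihood F test, Benjamini-Hochberg adjustment over 14289 genes). A call needs an adjusted p under 0.05 and at least a 1.5-fold change. The standard error is the size of the log2 fold change over the square root of F. CPM uses TMM effective library sizes, with the SD over 3 wells. The script was tested on simulated data. The study's methods give no test for these data. Libraries hold 31728420 to 41035931 counts, and a 3-count floor is 0.0720 to 0.0957 CPM, for counting error only. No pair of wells of a group differed by less than sampling noise (chi-square per degree of freedom 2.50 to 7.74), and the common biological coefficient of variation was 3.74%.

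The members and lists were chosen with earlier results of these data known. Members with at least 30 counts on average in the higher group are given in every library if called. Others are given by range and count, or named with values to show a family. Called pathway genes and the ends of each pathway list are named as well. Values of other members, pathway genes, and comparisons of wells were singled out after they were seen. Promoter letters were searched in RefSeq windows (GRCm38.p6). Alternatives were RLE, upper-quartile and total scaling, other filters and fold limits, DESeq2 1.42.0, limma 3.58.1 and leaving out each library. The value of 1 pathway gene, which stays in the counts of its list, is not reported here.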

Additional observations from a re-analysis of the deposited data

How the results depend on the processing

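The 20 calls among members (19 lower, 1 higher) stayed between 16 and 21 under other scalings, filters and tools, with the low end where each library needed at least 10 counts, and DESeq2 gave 20. A 2-fold limit left 15, all lower. Leaving out each library in turn gave 18 to 22 calls among members, 7 to 8 of the pathway genes (7 with all libraries) and 2501 to 2618 of all genes (2531 with all libraries). Without a fold limit, 35 members, 23 pathway genes and 8391 of all genes were called, and a 2-fold limit called 1456 of all genes. For single members, 314 of 325 values kept their direction and their side of the threshold under the other settings, and 239 of 246 did so when a library was left out. Oas1c lost its call at -0.53 with upper-quartile factors, -0.55 with library totals, -0.58 with the 10-count filter, limma-voom or the deposited log2 values, -0.45 without labelled WT replicate 3 and -0.53 without labelled KO replicate 2. Lgals3bp lost it at -0.54, -0.57 and -0.58 with upper-quartile factors, library totals and limma-voom, and at -0.45 without labelled WT replicate 3. The sign turned for Znfx1 (0.0203) and Uba7 (0.0254) with upper-quartile factors, and for Uba7 also with library totals (0.0032), without labelled WT replicate 3 (0.0072) and without labelled KO replicate 3 (0.0027), in a range from -0.0893 to 0.0072 over the libraries left out, and neither gene was called under any of these. The causes were not tested. Upper-quartile factors moved the median log2 of all genes by 0.06 and the share of lower calls from 34.4% to 29.3%. No paired analysis was possible because the labels give no replicate numbers that pair wells across the groups. Depth limits Oas1g, Oas1a, Ddx60 and Ifi44, which have 0 to 10 counts in the libraries labelled KO.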
